A study of Caenorhabditis elegans with 12 samples.

Results

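The pals genes of Caenorhabditis elegans were followed in whole N2 hermaphrodites that fed on bacteria for RNA interference (RNAi) against bcat-1 or with the control vector, at 2 ages. Members were the protein-coding genes whose symbol starts with pals- and that had at least 20 counts over the 12 libraries. The Ensembl annotation of WBcel235 lists 38 such genes, 37 of them had a row among the 46748 genes of the count table, and 27 met the minimum. pals-21 was not analysed here. The gene just inside the minimum was pals-2 with 21 counts, and the gene just outside it was pals-3 with 17. With a minimum of 10 counts 28 genes would be members, and with 50 counts 23.

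The pals genes encode proteins that share the ALS2CR12 signature, a protein motif of unknown biochemical function, and the family is greatly expanded in this worm. Several members are known as part of the intracellular pathogen response, a set of genes switched on in the intestine by microsporidia, by the Orsay virus and by proteotoxic stress. pals-5 is the gene most used as a reporter of that response, pals-22 holds the response off and pals-25 is its activating partner, and pals-17 is a further negative regulator that acts against pals-20 and pals-16.

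The worms were wild type (N2) and ate bacteria that carried either L4440, the empty vector, or a clone against bcat-1, here called the RNAi food, at an age given as 1 day or 2 days. Each of the 4 groups had 3 libraries. The enzyme BCAT-1 carries out the first, aminotransferase step of branched-chain amino acid breakdown. The bacteria deliver double-stranded RNA by feeding, which lowers a transcript without removing the gene. The labels do not say whether libraries came from separate cultures, so p-values measure only the spread between these samples, which may be technical. Replicate numbers name libraries and pair nothing. In whole worms, fewer cells of a type and less RNA per cell cannot be told apart.

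Libraries held 29291731 to 43855795 counts. The targeted bcat-1 transcript was at 156.0 to 179.5 CPM (counts per 1000000, on library sizes scaled with TMM factors) in the L4440 libraries of day 1 and at 18.01 to 27.1 CPM in the bcat-1 libraries of that day. The L4440 libraries of day 2 had 116.5 to 156.9 CPM of it, and the 3 libraries labelled bcat-1 had 13.9, 17.4 and 328.6 CPM. The value of 328.6 CPM went against the label of its library, labelled bcat-1 day 2 replicate 3. It also had 41.5% of its counts in ribosomal RNA genes, against 6.74% in L4440 day 2 replicate 3 and 0.0724% to 2.49% in the others. Values from fits without the library labelled bcat-1 day 2 replicate 3 stand beside those of the tested members and of the response genes named.

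Most pals transcripts were scarce. As CPM per kilobase of merged exon, the median member was at 0.307, against 4.62 for the 15846 protein-coding genes with at least 20 counts. On that length-scaled level 2 members, pals-24 and pals-23, lay above the protein-coding median, and 18 of 27 lay in the lowest 25% of those genes. The order on the same scale ran from pals-24 (12.1) through pals-23 (8.02), pals-17 (4.47), pals-22 (3.33), pals-25 (2.97), pals-34 (2.39) and pals-16 (2.18) to pals-1 (0.766), pals-19 (0.722) and pals-6 (0.549), and ended at pals-2 (0.0373). The 7 most abundant members thus held the named regulators pals-22, pals-25, pals-17 and pals-16, while pals-20 was lower, at 0.362.

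**Figure D1:**
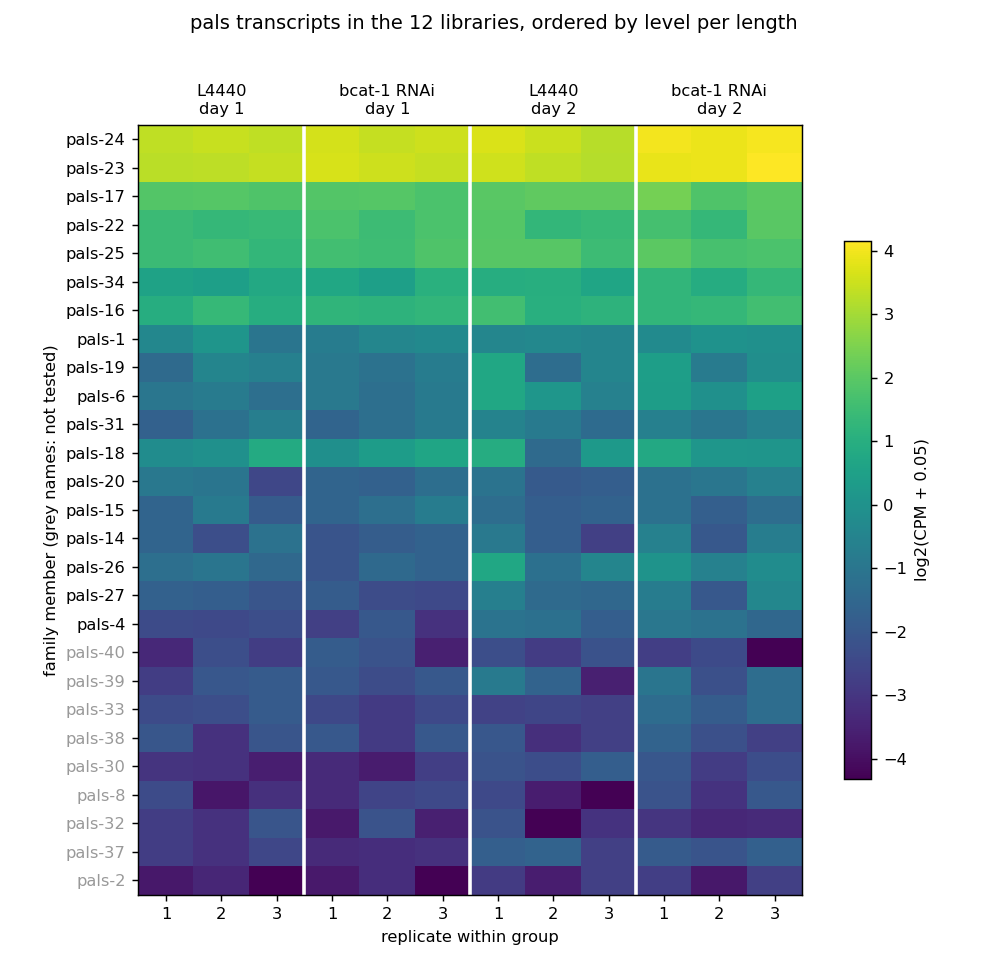
Level of each of the 27 pals members in each of the 12 libraries, as log2(CPM + 0.05) in colour, with members ordered from the highest to the lowest level per length. pals-24 and pals-23 form the bright top rows, between 9.19 and 17.9 CPM in every library, and the 9 members with grey names were too low to test.

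Read counts sat in few loci. Genes of the family closer than 100 kb fell into 11 neighbourhoods on chromosomes I, III, IV and V. The 4 genes pals-24, pals-23, pals-22 and pals-25 lie within one cluster on the forward strand of chromosome III from 120435 to 137975 (WBcel235), and they took 66.4% of the 19691 member counts. pals-23 and pals-24 alone took 52.9%. The largest cluster, 14 genes over 61.3 kb of chromosome I from 13083321 to 13144623, gave 4.06% of member counts through its 6 members pals-2, pals-4, pals-6, pals-8, pals-14 and pals-15.

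The 10 genes below the minimum had 63 counts in all, with at most 5 in any library, and 8 of the 10 belonged to the chromosome I cluster. The reporter gene pals-5 was among them, with 8 counts over 12 libraries. These were 1 count in bcat-1 day 1 replicate 1, 2 and 1 in L4440 day 2 replicates 1 and 3, and 4 in bcat-1 day 2 replicate 1. The remaining 8 libraries had no pals-5 read, which allows up to 3 counts in each, or 0.0663 to 0.153 CPM over the 12 libraries. No group could be told from another for pals-5 at this depth. Of the family, 27.03% was below 20 counts, against 19.3% of the 19641 protein-coding genes in the table.

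Of the 27 members, 18 passed the filter on low counts and were tested, with totals of 112 to 5283 counts. The other 9 were too low to judge: pals-40, pals-39, pals-33, pals-38, pals-30, pals-8, pals-32, pals-37 and pals-2 had totals of 21 to 104 counts and at most 23 in a library. Among the tested members, 12 had at least 10 counts in each library. By mean over all libraries, 8 members were at 1 CPM or more, 16 between 0.1 and 1 CPM and 3 below 0.1 CPM.

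The largest differences of abundant members between foods were those of pals-23 and pals-24 at day 2. pals-24 (WBGene00016219) was at 10.1, 10.9 and 10.1 CPM on L4440 and at 12.1, 10.6 and 11.4 CPM on the RNAi food at day 1. Its day 2 levels were 12.95, 11.3 and 9.43 CPM with L4440 and 15.98, 15.01 and 16.6 CPM with bcat-1 RNAi. The day 1 groups overlapped, and at day 2 every bcat-1 library lay above every L4440 library. pals-23 (WBGene00016218), which begins 87 bp after the end of pals-24 on the same strand, was at 9.60, 10.0 and 10.6 CPM on L4440 and at 12.6, 11.3 and 10.7 CPM on the RNAi food at day 1. The day 2 libraries had 11.7, 10.1 and 9.19 CPM with L4440 and 14.6, 14.9 and 17.9 CPM with bcat-1 RNAi. The groups did not overlap at either day, and at day 1 they nearly met.

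The day 2 effect of bcat-1 RNAi was a log2 fold change of 0.61 (SE 0.13) for pals-23 and 0.50 (SE 0.13) for pals-24. Neither passed edgeR's quasi-likelihood test after Benjamini-Hochberg adjustment over all genes, with adjusted p of 0.097 and 0.164. DESeq2 called both, with adjusted p of 0.00235 and 0.0204, and limma-voom called neither, each run only with all libraries. With all libraries the difference therefore rested on the tool for its call and not for its direction. In the fit without the library labelled bcat-1 day 2 replicate 3 the log2 fold changes were 0.50 for pals-23 and 0.45 for pals-24, with edgeR adjusted p of 0.205 and 0.345. With each library left out in turn, pals-23 kept a positive value between 0.50 and 0.71 and pals-24 between 0.39 and 0.61.

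At day 1 the log2 fold change was 0.20 (SE 0.13) for pals-23 and 0.14 (SE 0.13) for pals-24, and its 95% intervals ended at 0.48 and 0.41. Averaged over both days, pals-23 was at 0.40 (SE 0.09, edgeR adjusted p 0.119) and pals-24 at 0.32 (SE 0.09, adjusted p 0.285). The change of the RNAi effect from day 1 to day 2 was 0.41 (SE 0.18) for pals-23 and 0.36 (SE 0.18) for pals-24, and neither passed the test of that difference (edgeR adjusted p 1). With the library labelled bcat-1 day 2 replicate 3 left out, the averaged values were 0.34 and 0.29, and the changes between days were 0.32 and 0.33, with none called. The ratio of pals-24 to pals-23 CPM stayed between 0.926 and 1.11 in the 12 libraries, a narrow range beside that of either gene.

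**Figure D2:**
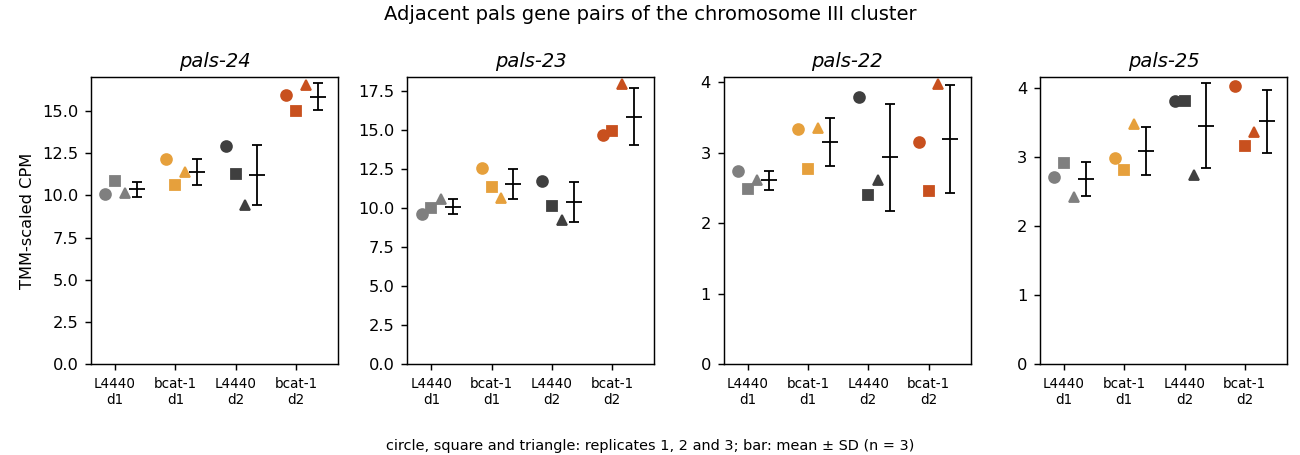
TMM-scaled CPM (vertical axis, from 0) of the 2 adjacent gene pairs on chromosome III in each library, by group (d1 and d2 are days 1 and 2), with circle, square and triangle for replicates 1, 2 and 3 and bars for mean ± SD (n = 3). The bcat-1 libraries of day 2 sit between 15.01 and 16.6 CPM for pals-24 and between 14.6 and 17.9 CPM for pals-23, above the L4440 libraries, while those of pals-22 and pals-25 overlap with L4440.

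The antagonists pals-22 and pals-25, separated by 92 bp on the same strand in that cluster, passed no test between foods. pals-22 (WBGene00016216), the repressor, was at 2.74, 2.48 and 2.61 CPM on L4440 and at 3.34, 2.76 and 3.35 CPM on the RNAi food at day 1. On day 2 the levels were 3.79, 2.39 and 2.61 CPM with L4440 and 3.15, 2.46 and 3.98 CPM with bcat-1 RNAi. All bcat-1 libraries lay above all L4440 libraries at day 1 and the groups overlapped at day 2. pals-25 (WBGene00020540), the activator, was at 2.72, 2.92 and 2.42 CPM on L4440 and at 2.98, 2.82 and 3.48 CPM on the RNAi food at day 1. At day 2 it was at 3.82, 3.81 and 2.75 CPM on L4440 and at 4.04, 3.16 and 3.37 CPM on bcat-1 RNAi. Its groups overlapped at both days. The 95% interval of the log2 RNAi effect for pals-22 was -0.21 to 0.75 on day 1 and -0.37 to 0.59 on day 2, and for pals-25 it was -0.19 to 0.60 and -0.37 to 0.42. Any change beyond 2-fold lay outside these 4 intervals. Without the library labelled bcat-1 day 2 replicate 3 the day 2 effect was -0.08 (SE 0.21) for pals-22 and 0.04 (SE 0.20) for pals-25. The ratio of pals-25 to pals-22 CPM was lowest, at 0.846, for the library labelled bcat-1 day 2 replicate 3 and highest, at 1.59, for L4440 day 2 replicate 2, a wider range than that of pals-24 to pals-23.

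The other regulators, pals-17, pals-20 and pals-16, lie together on chromosome III between 1376945 and 1406263. pals-17 (WBGene00022346), the negative regulator, was at 3.65, 3.74 and 3.49 CPM on L4440 and at 3.65, 3.72 and 3.35 CPM on the RNAi food at day 1. Its day 2 levels were 3.97, 4.18 and 4.24 CPM with L4440 and 5.15, 3.502 and 4.03 CPM with bcat-1 RNAi. It passed no test between foods, with a log2 RNAi effect of -0.02 (95% interval -0.37 to 0.32) at day 1 and 0.04 (-0.31 to 0.38) at day 2. pals-16 (WBGene00022337) was at 1.91, 2.52 and 1.88 CPM on L4440 and at 2.295, 2.21 and 2.35 CPM on the RNAi food at day 1. The day 2 libraries had 2.95, 2.00 and 2.20 CPM with L4440 and 2.35, 2.48 and 2.96 CPM with bcat-1 RNAi. Its groups overlapped at both days, with log2 RNAi effects of 0.12 (SE 0.20) and 0.11 (SE 0.20). In the fit without the library labelled bcat-1 day 2 replicate 3 the day 2 effects were 0.05 (SE 0.17) for pals-17 and 0.003 (SE 0.21) for pals-16.

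pals-20 (WBGene00194746), which pals-17 acts against, had 4 to 20 counts in each library. It was at 0.477, 0.442 and 0.126 CPM on L4440 and 0.281, 0.262 and 0.368 CPM on the RNAi food at day 1. On day 2 the levels were 0.421, 0.212 and 0.237 CPM with L4440 and 0.396, 0.455 and 0.612 CPM with bcat-1 RNAi. The groups overlapped at both days, and the log2 RNAi effect at day 2, 0.68, had a 95% interval from -0.31 to 1.66 and was 0.51 (SE 0.50) without the library labelled bcat-1 day 2 replicate 3. Its exons share 502 bp with Y82E9BR.5 on the opposite strand. The library kit does not mark strand, so reads of the shared stretch cannot be told apart.

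Over the 18 tested members, edgeR called 0 for bcat-1 RNAi against L4440 at day 1, where it called 0.0% of the 14567 tested genes. There 0 members had an unadjusted p under 0.05, against 2.04% of genes, and DESeq2 (0.11% of genes) and limma-voom (0.0%) also called 0. For day 2 edgeR called 0 members, against 0.419% of all tested genes, and 2 members had an unadjusted p under 0.05, against 7.21% of genes. DESeq2 called 2, against 1.34%, and limma-voom 0, against 0.391%. For the effect averaged over both days edgeR called 0 members (0.343% of genes), with 2 at an unadjusted p under 0.05 (6.3% of genes). DESeq2 called 1 (1.08% of genes) and limma-voom 0 (0.343%). For the change of the effect between days edgeR and limma-voom (0.0% of genes each) and DESeq2 (0.0892%) called 0 members, with 1 at an unadjusted p under 0.05 by edgeR, against 2.64% of genes.

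The median log2 RNAi effect of the tested members was -0.01 at day 1 and 0.18 at day 2, against 0.01 and -0.02 over all genes. At day 2, 16 of 18 were positive with TMM scaling, against 46.9% of all genes, but 9 of 18 were positive when library sizes alone set the scale, which moved the median of all genes to -0.14 and that of the members to 0.03. Those library sizes include ribosomal RNA, 41.5% of the counts of the library labelled bcat-1 day 2 replicate 3. With ribosomal RNA genes left out before TMM scaling, 17 of 19 tested members were positive at day 2, with a median of 0.18. With the library labelled bcat-1 day 2 replicate 3 left out, 14 of 19 were positive and the day 2 median of the members was 0.05. Without both libraries with over 5% of counts in ribosomal RNA genes, 10 of 19 were positive, with a median of 0.07. All bcat-1 libraries lay above all L4440 libraries for 2 members at day 1, pals-23 and pals-22, against 5.85% of genes, and for 3 at day 2, pals-24, pals-23 and pals-1, against 6.52%. Leaving out the library labelled bcat-1 day 2 replicate 3 cannot make such groups overlap, and it added no tested member at day 2. No tested member had its bcat-1 libraries all below those on L4440. Of the 9 members too low to test, pals-33 had its bcat-1 libraries all lower at day 1 and all higher at day 2. The 95% interval of the log2 effect lay within a 2-fold change for 10 of 18 members at day 1 and for 11 at day 2. The other tested members could have changed by more than 2-fold and would not have been told apart at this depth and replication.

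**Figure D3:**
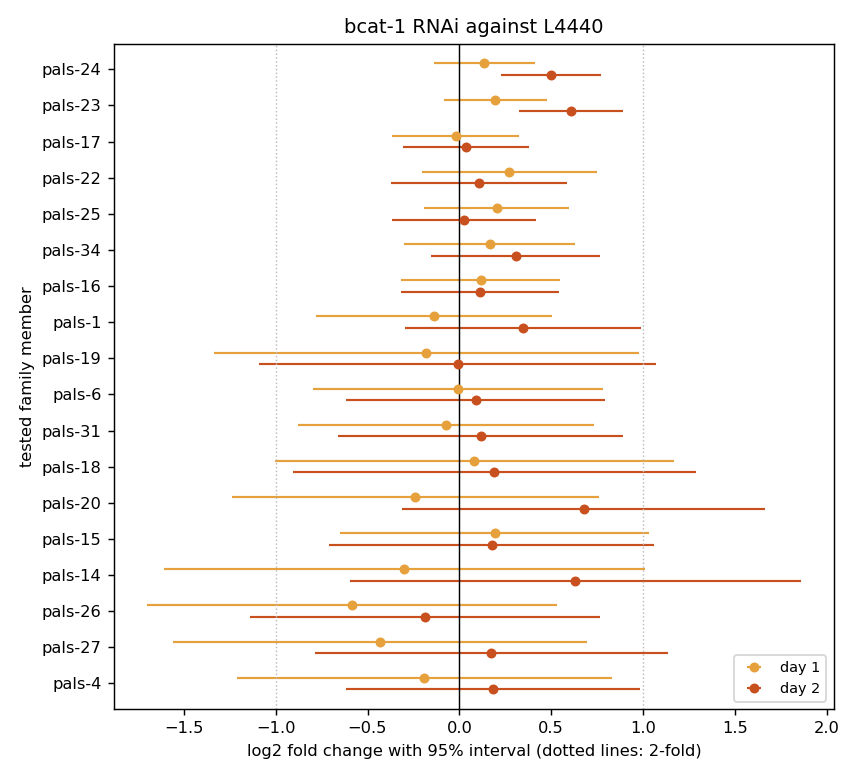
Log2 fold change of bcat-1 RNAi against L4440 with its 95% interval (horizontal axis) for each tested member, ordered by level per length from top to bottom, at day 1 and at day 2; dotted lines mark a 2-fold change. The intervals of pals-24 and pals-23 at day 2 are the only ones that exclude 0, and intervals widen towards the scarce members at the bottom.

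pals-34 (WBGene00017823), a single gene on chromosome V with no role given here, came next by unadjusted p among members above 0.5 CPM at day 2. It was at 1.89, 1.97 and 1.53 CPM on L4440 and at 2.38, 1.87 and 2.45 CPM on the RNAi food at day 2. The groups overlapped, and the log2 effect of 0.31 (SE 0.21, edgeR adjusted p 0.772) was within the spread of libraries, and it was 0.22 (SE 0.23) without the library labelled bcat-1 day 2 replicate 3. At day 1 it was at 1.43, 1.35 and 1.70 CPM on L4440 and at 1.63, 1.34 and 2.04 CPM on bcat-1 RNAi, and these groups overlapped too.

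Every member that passed a test with age was higher at day 2. pals-6 (WBGene00007660) of the chromosome I cluster was at 0.453, 0.531 and 0.377 CPM on L4440 and at 0.484, 0.378 and 0.502 CPM on the RNAi food at day 1. At day 2 it was at 1.60, 1.06 and 0.611 CPM on L4440 and at 1.26, 0.910 and 1.38 CPM on bcat-1 RNAi. Every day 2 library lay above every day 1 library. Its log2 fold change from day 1 to day 2 was 1.27 (SE 0.34) on L4440 and 1.36 (SE 0.35) on bcat-1 RNAi, with edgeR adjusted p of 0.0748 and 0.0502. The value on bcat-1 RNAi was 1.23 (edgeR adjusted p 0.0889) without the library labelled bcat-1 day 2 replicate 3. Averaged over both foods, a contrast added after the data were seen, it was 1.31 (SE 0.24, edgeR adjusted p 0.00508).

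pals-4 (WBGene00007658), also of the chromosome I cluster, had at most 7 counts in each day 1 library and 6 to 19 in each day 2 library. It was at 0.143, 0.133 and 0.157 CPM on L4440 and at 0.102, 0.203 and 0.0670 CPM on the RNAi food at day 1. Its day 2 levels were 0.421, 0.393 and 0.237 CPM with L4440 and 0.471, 0.409 and 0.306 CPM with bcat-1 RNAi. Every day 2 library again lay above every day 1 library. The log2 fold change was 1.29 (SE 0.41, edgeR adjusted p 0.108) on L4440 and 1.66 (SE 0.43, adjusted p 0.0456) on bcat-1 RNAi, and it was the member edgeR called in the age comparison on that food. That call was lost in 11 of the 12 fits that left out 1 library, where the log2 fold change ran from 1.42 to 2.18 and the adjusted p from 0.0452 to 0.175, and held only without bcat-1 day 1 replicate 2. pals-4 reached 10 counts only in day 2 libraries, so it entered the test through the groups in which it was higher. In a fit with no filter edgeR did not call pals-4 on bcat-1 RNAi (adjusted p 0.0722) and called pals-6 there (adjusted p 0.0463). The log2 fold change of pals-4 on bcat-1 RNAi was 1.76 (edgeR adjusted p 0.0525) without the library labelled bcat-1 day 2 replicate 3. Averaged over both foods it was 1.48 (SE 0.30, edgeR adjusted p 0.00688).

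pals-26 (WBGene00007131) and pals-27 (WBGene00007132), 2 neighbours on chromosome III with no role given here, showed the same direction. pals-26 was at 0.381, 0.442 and 0.314 CPM on L4440 and at 0.179, 0.320 and 0.268 CPM on the RNAi food at day 1. The day 2 libraries had 1.60, 0.393 and 0.678 CPM with L4440 and 0.966, 0.614 and 0.816 CPM with bcat-1 RNAi. L4440 day 2 replicate 1 stood far above the rest, and L4440 day 2 replicate 2 lay within the day 1 range. The log2 fold change was 1.24 (SE 0.46) on L4440 and 1.64 (SE 0.49) on bcat-1 RNAi, with edgeR adjusted p of 0.158 and 0.0919. On L4440 it was 0.48 (edgeR adjusted p 0.708) in the fit that left out replicate 1 of L4440 day 2. Leaving out replicate 2 of that group gave 1.59, which edgeR called (adjusted p 0.0384). On bcat-1 RNAi it was 1.60 (edgeR adjusted p 0.115) without the library labelled bcat-1 day 2 replicate 3. The value was 1.44 (SE 0.34, adjusted p 0.0151) averaged over both foods. Exons of pals-26 share 170 bp with a pseudogene on the same strand, so its counts are uncertain. pals-27 was at 0.262, 0.243 and 0.188 CPM on L4440 and at 0.230, 0.145 and 0.134 CPM on the RNAi food at day 1. On day 2 the levels were 0.577, 0.333 and 0.305 CPM with L4440 and 0.545, 0.205 and 0.714 CPM with bcat-1 RNAi. Its groups did not overlap on L4440 and overlapped on bcat-1 RNAi. The log2 fold change was 0.81 (SE 0.46, edgeR adjusted p 0.398) on L4440 and 1.42 (SE 0.495, adjusted p 0.141) on bcat-1 RNAi. On bcat-1 RNAi it was 1.07 (edgeR adjusted p 0.253) without the library labelled bcat-1 day 2 replicate 3. Averaged over both foods it was 1.12 (SE 0.34, edgeR adjusted p 0.0444). Scaled to library depth, only day 2 libraries of pals-27 reached the filter's minimum of 10 counts. It thus entered the test through the groups in which it was higher.

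**Figure D4:**
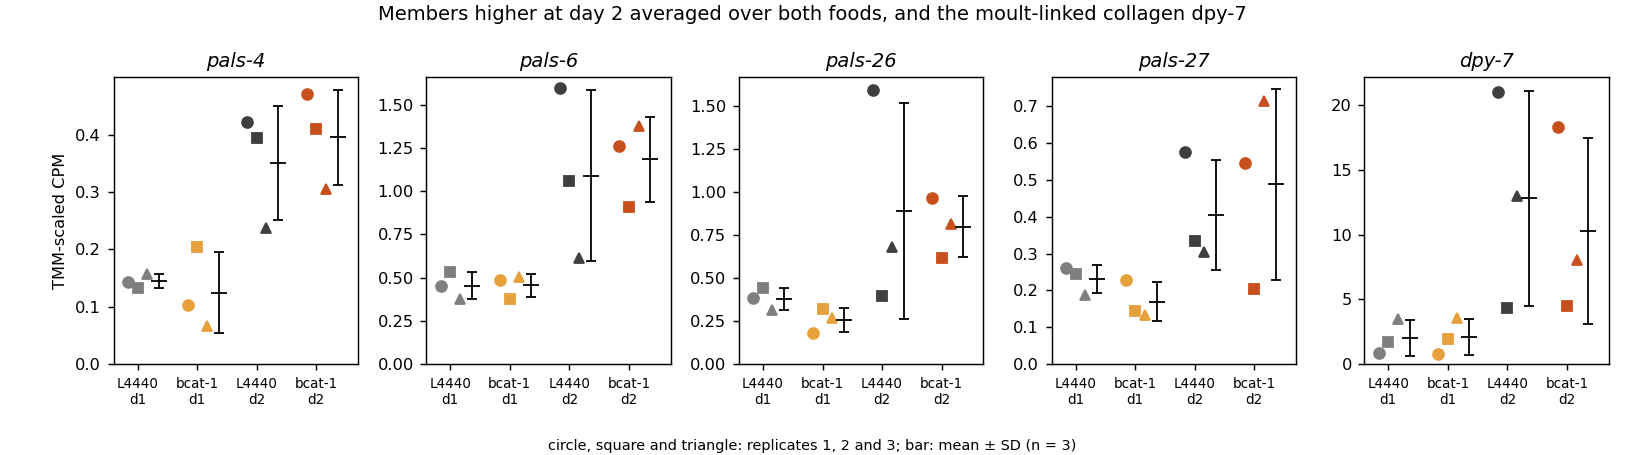
TMM-scaled CPM (vertical axes, from 0, each with its own scale) of pals-4, pals-6, pals-26, pals-27 and the collagen dpy-7 in each library, by group (d1 and d2 are days 1 and 2), with circle, square and triangle for replicates 1, 2 and 3 and bars for mean ± SD (n = 3). pals-6 lies between 0.377 and 0.531 CPM at day 1 and between 0.611 and 1.60 CPM at day 2, and replicate 1 of both foods is the highest day 2 library of dpy-7.

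Over the 18 tested members, edgeR called 0 from day 1 to day 2 on L4440, against 2.3% of all tested genes, with 3 at an unadjusted p under 0.05, against 18.1%. DESeq2 called 1 there, pals-6 with an adjusted p of 0.0477, against 6.86% of genes, and limma-voom 0, against 2.05%. On bcat-1 RNAi edgeR and limma-voom each called 1, pals-4, against 4.07% of genes each. DESeq2 called 3 there, pals-6, pals-24 and pals-23, against 7.01%, and gave pals-4 no adjusted p. Averaged over both foods edgeR called 5 members higher and 0 lower, against 8.86% of genes called higher and 5.57% called lower. DESeq2 (17.4% of genes in either direction) and limma-voom (11.4%) each called 4 of these 5, without pals-27 (adjusted p 0.0666 and 0.0870). The fifth was pals-24, with a log2 fold change of 0.30 (SE 0.09, edgeR adjusted p 0.0447). With each library left out in turn, pals-6, pals-4 and pals-26 remained called in 12 of 12 fits, and pals-27 and pals-24 in 2 of 12 each. For pals-27 these were the fits without L4440 day 2 replicate 2 and without bcat-1 day 2 replicate 2, and for pals-24 the fits without L4440 day 2 replicate 3 and without bcat-1 day 2 replicate 2. Over these fits the log2 fold change ran from 0.93 to 1.32 for pals-27 and from 0.24 to 0.35 for pals-24, with adjusted p of 0.0103 to 0.123 and 0.0263 to 0.117. Without the library labelled bcat-1 day 2 replicate 3 the averaged log2 fold changes were 1.23 for pals-6, 1.51 for pals-4 and 1.404 for pals-26, all called, and 0.93 for pals-27 and 0.26 for pals-24, not called (edgeR adjusted p 0.0748 and 0.0650).

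pals-23 and pals-24 had log2 fold changes with age of 0.46 (SE 0.13, edgeR adjusted p 0.0761) and 0.48 (SE 0.13, adjusted p 0.0582) on bcat-1 RNAi and of 0.04 (SE 0.13) and 0.12 (SE 0.13) on L4440. In the fit without the library labelled bcat-1 day 2 replicate 3 the values on bcat-1 RNAi were 0.34 and 0.42 (edgeR adjusted p 0.144 and 0.0956). The difference between the foods is the same contrast as the change of the RNAi effect given above, and it did not pass the test. The age and RNAi comparisons share their groups. pals-25 had the fourth smallest unadjusted p with age on L4440, at a log2 fold change of 0.37 (SE 0.18, edgeR adjusted p 0.319), and 0.19 (SE 0.18) on bcat-1 RNAi. pals-22 was at 0.18 (SE 0.22) on L4440 and 0.01 (SE 0.22) on bcat-1 RNAi. With the library labelled bcat-1 day 2 replicate 3 left out, the values on bcat-1 RNAi were 0.19 for pals-25 and -0.19 for pals-22. Neither of these antagonists passed a test between ages.

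Among the 18 tested members, the groups of day 1 and day 2 did not overlap for 4 on L4440, pals-17, pals-6, pals-27 and pals-4, and for 8 on bcat-1 RNAi, pals-24, pals-23, pals-16, pals-1, pals-6, pals-20, pals-26 and pals-4. In all of these day 2 was higher. Leaving out the library labelled bcat-1 day 2 replicate 3 cannot make groups that lie apart overlap, and it added no tested member on bcat-1 RNAi. Of the untested members, pals-30 on L4440 and pals-33 and pals-37 on bcat-1 RNAi also lay apart and higher at day 2, and pals-33 on L4440 lay apart and lower. The share of all tested genes that lay apart and higher was 11.7% and 11.1%. The median log2 fold change of the tested members was 0.19 on L4440 and 0.47 on bcat-1 RNAi, against -0.001 and -0.005 over all genes. Without L4440 day 2 replicate 1 the L4440 median was -0.003, with 8 of 18 positive. Without the library labelled bcat-1 day 2 replicate 3 the bcat-1 median was 0.42. pals-4, pals-14, pals-26 and pals-27 entered the test with a group sum below 30 counts. Of these, pals-4 and pals-27 reached the filter's level only in day 2 libraries. That part of the tested set was there through the groups in which it was higher.

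**Figure D5:**
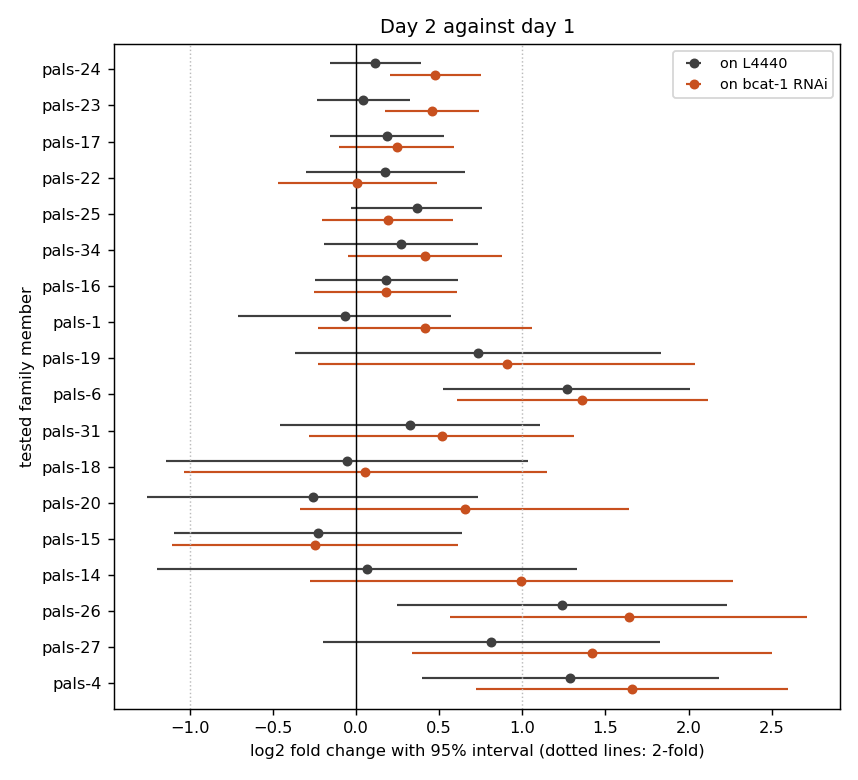
Log2 fold change of day 2 against day 1 with its 95% interval (horizontal axis) for each tested member, ordered by level per length from top to bottom, on L4440 and on bcat-1 RNAi; dotted lines mark a 2-fold change. pals-6, pals-26 and pals-4 exclude 0 on both foods, and pals-24, pals-23 and pals-27 exclude 0 on bcat-1 RNAi.

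The day 2 libraries differed among themselves within each food. Summed over all members, the day 1 level of the family was 37.5 to 40.2 CPM with L4440 and 40.4 to 43.5 CPM with bcat-1 RNAi. At day 2 it was at 53.1, 41.6 and 38.1 CPM on L4440 and at 58.7, 50.5 and 61.0 CPM on bcat-1 RNAi. The bcat-1 libraries overlapped with L4440 at day 2, since L4440 day 2 replicate 1 lay above bcat-1 day 2 replicate 2. dpy-7, a cuticle collagen whose transcript peaks before each moult, was at 0.790 to 3.55 CPM at day 1, at 21.03, 4.36 and 13.02 CPM on L4440 and at 18.3, 4.48 and 8.01 CPM on the RNAi food at day 2. Replicate 1 of each food had the highest dpy-7 of its day 2 group. L4440 day 2 replicate 1 was also the highest library of its group for every tested member except pals-17, pals-34 and pals-1. On bcat-1 RNAi replicate 1 was the highest of its day 2 group for pals-17, pals-25, pals-19, pals-18, pals-15, pals-14, pals-26 and pals-4, and not for the other tested members. The part of these libraries in the age results was not tested. Without replicate 1 of both day 2 groups, an alternative chosen after the data were seen, pals-6 had a mean log2 fold change with age of 1.09, pals-4 1.33 and pals-26 0.97, all called by edgeR (adjusted p 0.0179, 0.0332 and 0.0469). In the same fit the day 2 effect of bcat-1 RNAi was 0.78 for pals-23, which edgeR called (adjusted p 0.0479), and 0.63 for pals-24 (adjusted p 0.0850). For pals-23 the libraries left out were the highest of day 2 on L4440 (11.7 CPM) and the lowest on bcat-1 RNAi (14.6 CPM). Leaving them out widens its difference by itself, so that call adds no support for an effect. That fit kept the library labelled bcat-1 day 2 replicate 3, which had the highest levels of both genes, 17.9 and 16.6 CPM.

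Markers of the tissues in a whole worm were followed beside these values. All 6 intestine markers were tested, with a summed level of 18690 to 21770 CPM over the 12 libraries, largely from the yolk gene vit-2. From day 1 to day 2 edgeR called asp-1 lower on both foods and no intestine marker higher on either. Of 5 epidermis markers col-19 was called lower on both foods, and the summed level of the 5 was 202.7 to 316.3 CPM at day 1 and 101.6 to 154.7 CPM at day 2. The sum fell although 3 of the 5 had a log2 fold change above 0 on each food. The median of the 5 was 2.32 on L4440 and 1.6 on bcat-1 RNAi. Of 5 muscle markers lev-11 was called lower on bcat-1 RNAi. edgeR called no marker of neurons, germline, sperm or pharynx in the age comparison on either food (DESeq2 called phat-1 and fer-1 on L4440), and edgeR, DESeq2 and limma-voom called none of any tissue between foods at day 1 or day 2. Averaged over both foods, the comparison with 5 members called, edgeR called 10 markers. Those higher at day 2 were mtl-2 of the intestine (log2 fold change 0.42), dpy-7 of the epidermis (2.5), phat-1 of the pharynx (3.45) and fer-1 of sperm (1.08). Those lower were asp-1 (-0.83), col-19 (-1.21), lev-11 (-0.53), unc-15 (-0.43), unc-54 (-0.415) and the pharynx marker marg-1 (-0.51). No marker was at 0 in all libraries, and 2 of the 5 sperm markers had fewer than 20 counts. Their part in the pals values was not tested.

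The remaining tested members, pals-1, pals-14, pals-15, pals-18, pals-19 and pals-31, were not called by edgeR in any comparison with all libraries. With 1 library left out pals-19 was called in 1 of 12 fits with age averaged over both foods, at an adjusted p of 0.0498 without L4440 day 2 replicate 2, against 0.159 with all libraries. Their log2 RNAi effects at day 2 ran from -0.01 (pals-19) to 0.63 (pals-14), with standard errors of 0.29 (pals-1) to 0.56 (pals-14). In the fit without the library labelled bcat-1 day 2 replicate 3 they ran from -0.003 (pals-19) to 0.48 (pals-14). pals-18 and pals-19 share 53 bp of exon and were both highest in the day 2 replicate 1 libraries of their own food, at 1.84 and 1.60 CPM on L4440 and 1.71 and 1.29 CPM on bcat-1 RNAi. pals-18 was as low as 0.333 CPM in L4440 day 2 replicate 2. Its spread within that group, with an SD of 0.754 CPM around a mean of 1.10 CPM (n = 3), exceeded every difference between its group means.

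Among the 9 members too low for the main test, a fit with no filter, run with all libraries, gave pals-33 the largest RNAi value at day 2. pals-33 had 5, 4 and 3 counts on L4440 and 14, 10 and 7 counts on bcat-1 RNAi at day 2, and 3 to 7 counts in the day 1 libraries. These day 2 groups did not overlap, and the log2 fold change of 1.42 (SE 0.50) had an edgeR adjusted p of 0.559. pals-37 had 2 to 4 counts in the day 1 libraries and 11, 9, 3, 9, 8 and 5 at day 2. Its averaged log2 fold change with age was 1.47 (SE 0.43) in that fit, with an edgeR adjusted p of 0.0226. Its exons share 925 bp with the antisense RNA gene anr-30 on the opposite strand, whose reads cannot be told from its own. pals-30 had 1 to 3 counts in the day 1 libraries and 3 to 8 at day 2, with an averaged log2 fold change of 1.44 (SE 0.48, edgeR adjusted p 0.0506). pals-40, pals-32, pals-8 and pals-2 each had at least 1 library with no count.

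Genes of the intracellular pathogen response outside the family were taken from a list of 51, of which 44 were in the table, 22 were tested and 10 had fewer than 20 counts. Between foods edgeR called 0 of the 22 at day 1, with 1 at an unadjusted p under 0.05 (2.04% of all genes), and 0 at day 2, with 7 (7.21%). DESeq2 called 0 at day 1 and 3 at day 2 (1.34% of all genes), and limma-voom 0 at both. The median log2 RNAi effect at day 2 was 0.37, with 16 of 22 positive, against -0.02 and 46.9% over all genes. From day 1 to day 2 edgeR called fbxa-182, an F-box gene, higher on L4440, at a log2 fold change of 0.72 (adjusted p 0.0331), and with 1 library left out in turn that count ran from 0 to 4, where 2.3% of all genes were called. DESeq2 called 5 there (6.86% of all genes) and limma-voom 1 (2.05%). On bcat-1 RNAi edgeR called 6 of 22 higher and 0 lower (4.07% of all genes called), DESeq2 called 7 (7.01%) and limma-voom 6 (4.07%). With the library labelled bcat-1 day 2 replicate 3 left out, edgeR called 5 of 23 there.

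Those 6 included 3 parts of the cullin-RING ubiquitin ligase of the response, in which CUL-6 is the scaffold, SKR-3 and SKR-4 are Skp-related adaptors and RCS-1 is the RING subunit. skr-4 was at 12.41, 13.2 and 12.5 CPM on L4440 and 13.03, 12.3 and 11.0 CPM on the RNAi food at day 1, and at 18.4, 16.8 and 15.8 CPM and 20.04, 21.8 and 24.9 CPM at day 2. On each food its day 2 libraries lay above its day 1 libraries, with a log2 fold change of 0.88 (SE 0.11, edgeR adjusted p 0.00156) on bcat-1 RNAi. rcs-1 was at 11.8, 11.7 and 11.6 CPM at day 1 and 17.5, 17.1 and 18 CPM at day 2 on bcat-1 RNAi, and at 13.9, 12.65 and 11.2 CPM on L4440 at day 2. The bcat-1 libraries of day 2 lay above all other libraries. Its log2 fold change with age was 0.58 (SE 0.10, edgeR adjusted p 0.00859), and its RNAi effect at day 2 was 0.48 (adjusted p 0.1001). skr-3 rose by a log2 fold change of 0.62 (adjusted p 0.0259) with age on bcat-1 RNAi. cul-6 had 0.37 (adjusted p 0.318), which did not pass. Without the library labelled bcat-1 day 2 replicate 3 the age values on bcat-1 RNAi were 0.77 for skr-4, 0.54 for rcs-1 and 0.54 for skr-3, all called by edgeR (adjusted p 0.00264, 0.0168 and 0.0475), and 0.45 for cul-6, not called. In that fit the day 2 RNAi effect of rcs-1 was 0.45 (edgeR adjusted p 0.202).

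The other 3 called genes were fbxa-182 at 1.12 (edgeR adjusted p 0.00212), Y75B8A.39 at 1.59 (adjusted p 0.0242) and eol-1, a homologue of the decapping exonuclease DXO, at 1.68 (adjusted p 0.0234). eol-1 was at 0.167, 0.177 and 0.126 CPM on L4440 and 0.383, 0.262 and 0.502 CPM on the RNAi food at day 1. Its day 2 levels were 0.510, 0.454 and 0.611 CPM with L4440 and 0.768, 1.11 and 1.89 CPM with bcat-1 RNAi. The bcat-1 libraries lay above the L4440 libraries at both days, and its RNAi effect at day 2, 1.22, had an edgeR adjusted p of 0.250. In the fit without the library labelled bcat-1 day 2 replicate 3 eol-1 was at 1.29 with age on bcat-1 RNAi, not called (edgeR adjusted p 0.0554), and at 0.83 for the RNAi at day 2 (adjusted p 0.709). fbxa-182 and Y75B8A.39 were at 1.199 and 1.60 with age in that fit, both called. Summed over the list, the response genes had 77.3 to 87.1 CPM with L4440 and 77.6 to 82.2 CPM with bcat-1 RNAi at day 1. These ranges became 82.9 to 106.4 and 118.7 to 138.5 CPM at day 2. The count of 6 on bcat-1 RNAi was 1 with library sizes alone, 3 without both libraries rich in ribosomal RNA, and 3 without bcat-1 day 1 replicate 1 or replicate 2.

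Known regulators of the response outside the family were not called between foods. zip-1, the bZIP transcription factor needed for part of the response, had group means of 8.02 to 8.85 CPM. drh-1, the RIG-I-like sensor of viral RNA, had group means of 64.3 to 71.9 CPM. pnp-1, a purine nucleoside phosphorylase that holds the response off, had group means of 42.4 CPM with L4440 and 36.9 CPM with bcat-1 RNAi at day 1, and of 26.2 and 33.01 CPM at day 2. Of these 3 and lin-35 and sta-1, edgeR called 0 in the RNAi comparisons and in the age comparison on each food, with pnp-1 the 1 gene at an unadjusted p under 0.05 (age on L4440), which DESeq2 called there. limma-voom called 0. Averaged over both foods edgeR called pnp-1 lower with age, at a log2 fold change of -0.42 (adjusted p 0.0450). Of the 13 tested chil genes, chitinase-like genes induced by oomycete exposure, edgeR, DESeq2 and limma-voom called 0 between foods at each day and between ages on each food. With edgeR 2 of them had an unadjusted p under 0.05 for the RNAi at day 2 and 4 for age on L4440.

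Genes next to the clusters gave a local reference. C29F9.2, which lies between pals-23 and pals-22, had a log2 RNAi effect of 0.12 at day 2 (edgeR adjusted p 0.896). Its log2 fold change with age was 0.43 on L4440 and 0.62 on bcat-1 RNAi, not called (edgeR adjusted p 0.352 and 0.162). The F-box genes fbxb-81 to fbxb-84, which follow pals-25, had effects of 0.07 to 0.29 at day 2, none called. C29F9.6, which lies before pals-24, and T17A3.12, among the F-box genes, had larger values of 0.63 and 0.67, on 108 and 198 counts in all, and were not called either (edgeR adjusted p 0.777 and 0.744). Between pals-26 and pals-27, B0284.3 had a log2 fold change with age of -0.11 on L4440 and -0.002 on bcat-1 RNAi. There pals-26 had 1.24 and 1.64 (0.48 on L4440 without L4440 day 2 replicate 1). Nearby, in the same order, ckb-1 had 0.14 and 0.15, ckb-2 -0.25 and 0.17, R07E5.4 -0.03 and -0.87 and R07E5.5 0.49 and -0.78. Beside the chromosome I cluster F22G12.3 had -0.555 and -0.30, and within it Y26D4A.21 had -0.32 and -0.13. edgeR called none of these neighbours with age on either food.

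The genes whose levels followed pals-22 and pals-23 most closely were found by Pearson's r of log2(CPM + 0.5) over the 12 libraries, which share groups and depth. For pals-22 these were scrm-4 (r 0.938), snt-5 (0.929) and C06E2.1 (0.917). For pals-23, chosen after its values were seen, they were C50D2.6 (0.967), F46G10.1 (0.953) and C23H3.9 (0.948), and pals-24 came next (0.948). pals-25, the other gene of the regulator pair, had an r of 0.425 with pals-22 and came at rank 2994 among the tested genes. No likeness was computed for pals-5, which was not tested.

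Reads of near-identical copies could be split or dropped by the counting, whose treatment of reads with several places is not given in the sources used here. How far this lowered the values of clustered pals genes was not tested.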

How the data were processed

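RNA was sequenced with the TruSeq RNA v2 kit, which does not mark strand. Per the submitters' processing notes the tools were bcl2fastq 1.8.4, STAR 2.4.1d and featureCounts 1.4.6-p4, with the build WBcel235. The annotation release, strand setting and treatment of reads with several places are not given in the sources used here. The deposited table holds whole-number counts per gene from the authors, and their RPKM table was not used. Symbols, positions and exon lengths came from Ensembl annotation 115. Genes passing filterByExpr by group (14567) were fitted in edgeR 4.0.16 (R 4.3.3) with TMM factors and a quasi-likelihood model of 4 group means, with Benjamini-Hochberg adjustment over every tested gene and a threshold of 0.05. Intervals are 95% intervals. The script was tested on simulated data. Alternatives used DESeq2 1.42.0, limma-voom (limma 3.58.1), other scalings, filters and sample sets. The members and gene lists were chosen with earlier results of these data known. Members named with each library's value were the known regulators, the 5 highest per length, those called, and the 3 smallest p per comparison above 0.5 CPM.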

Additional observations from a re-analysis of the deposited data

How the results depend on the processing

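No paired analysis was possible because the labels carry no replicate number and the numbers used here only name libraries. Of 810 values of single genes recomputed under the alternatives, 724 kept their direction and side of the threshold, 43 lost a call, 23 gained one and 20 changed sign. The count of members called between foods was 0 under every setting at day 1. With the library labelled bcat-1 day 2 replicate 3 kept, the count at day 2 was 2 with DESeq2 and 1 without replicate 1 of both day 2 groups. Averaged over both days it was 1 with DESeq2, that library again kept. With age on L4440 it was 1 with DESeq2 and 1 without both libraries rich in ribosomal RNA. With age on bcat-1 RNAi it was 2 with RLE factors, 0 with library size only, 3 with DESeq2, 0 with only the compared groups, 0 without both libraries rich in ribosomal RNA and 2 without replicate 1 of both day 2 groups. Averaged over both foods it was 3 with library size only, 2 with the stricter filter (1 CPM and 50 counts, 9 members) and 3 without replicate 1 of both day 2 groups. With 1 library left out in turn it stayed at 0 in each RNAi comparison, and ran from 0 to 1 with age on L4440, from 0 to 3 on bcat-1 RNAi and from 3 to 5 averaged over foods.

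The median log2 fold change of the members was 0.14 at day 1 and 0.26 with age on bcat-1 RNAi with the stricter filter, and 0.029 at day 2 with library size only. Without replicate 1 of both day 2 groups it was 0.39 at day 2, 0.45 for the difference between days and -0.005 with age on L4440, and without both libraries rich in ribosomal RNA it was 0.35 with age on L4440. With 1 library left out it ran from -0.09 to 0.10 at day 1, 0.044 to 0.42 at day 2, 0.032 to 0.25 averaged over days, 0.064 to 0.48 for the difference, -0.003 to 0.37 with age on L4440, 0.42 to 0.60 on bcat-1 RNAi and 0.23 to 0.35 averaged over foods.

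With library size only the day 2 RNAi value was -0.042 for pals-16, -0.069 for pals-17, -0.067 for pals-22 and -0.09 for pals-25. Without both libraries rich in ribosomal RNA it was -0.043 for pals-16, -0.15 for pals-22 and -0.10 for pals-25. Without replicate 1 of both day 2 groups it was -0.15 for pals-17, and the age value on L4440 was -0.057 for pals-23 and -0.003 for pals-24. With 1 library left out the lowest and highest day 2 RNAi values were -0.005 and 0.30 for pals-16, -0.14 and 0.16 for pals-17, -0.085 and 0.34 for pals-22 and -0.12 and 0.10 for pals-25. At day 1 they were -0.05 and 0.003 for pals-17 and -0.60 and 0.033 for pals-20. With age on L4440 they were -0.056 and 0.12 for pals-23 and -0.001 and 0.22 for pals-24. The causes were not tested. Low counts limit the 9 members that were not tested and the 10 genes of the family below the minimum. Of the latter, pals-3 and pals-12 share 1185 bp of exon on the same strand, and the part of this overlap in their counts was not tested.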
